A study of Homo sapiens with 20 samples.

Results

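Receptors and ligands of the epidermal growth factor receptor (EGFR) family were followed in the RNA of extracellular vesicles and of cells from 10 human colorectal cancer lines. The 8 genes were taken by symbol from the 17113 genes of the count table. They comprise the 3 receptors EGFR, ERBB2 and ERBB3 and the 5 ligands AREG (amphiregulin), EREG (epiregulin), TGFA (transforming growth factor alpha), HBEGF (heparin-binding EGF-like growth factor) and BTC (betacellulin). All 8 were in the table and passed the filter on low counts.

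Each line gave 1 library of vesicle RNA and 1 library of cell RNA, 20 in all. The labels place LoVo, COLO-201, SNU-C1, HT-29, WiDr, HCT 116, LS123 and SW480 in the colon, and LS1034 and LS513 in the cecum. All 10 are established lines labelled as adenocarcinoma and WT, with no treatment, and were kept in RPMI-1640 or DMEM with fetal bovine serum. The labels do not say whether the serum was cleared of its own vesicles. Vesicle RNA came from an exosome RNA kit and was amplified with a SMART-Seq low-input kit and Nextera XT, whereas cell libraries came from a stranded kit that removes ribosomal RNA. Compartment and library kit coincide in every line and cannot be told apart. The stated question of the series is how far vesicle transcriptomes follow those of the cells that released them. With 1 library per line and compartment, the line is the replicate, and p-values measure the spread between lines.

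EGFR, ERBB2 and ERBB3 are receptor tyrosine kinases of the cell surface that signal as pairs. ERBB2 has no known ligand of its own and ERBB3 has little kinase activity, so both work mainly with a partner. The ligands are made as membrane-bound precursors and are released by proteases such as ADAM17 and ADAM10; AREG and TGFA bind EGFR, whereas EREG, HBEGF and BTC can also bind ERBB4. In colorectal cancer EGFR is the target of therapeutic antibodies, and AREG and EREG transcripts have been studied as markers of response to them.

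Vesicle libraries held between 1748238 and 24358033 counts and cell libraries between 24777352 and 37418506 counts. Genes that were silent in all cell libraries still received counts in vesicle libraries. From these counts, modelled on exon length and base composition, background reads were estimated at 1.98 to 47.6% of a vesicle library and at 0.0336 to 0.154% of a cell library. COLO-201, HT-29, LS513, HCT 116 and SW480 had the lower shares in vesicles, 1.98 to 6.8%, and LoVo, LS1034, SNU-C1, WiDr and LS123 the higher ones, 18.4 to 47.6%. The 5 higher-background vesicle libraries were also the smallest. Levels are given as CPM, counts scaled to library size with TMM factors. By library totals, without TMM factors, colon epithelial markers summed to 3009 to 16583 CPM in vesicles and 3018 to 17186 CPM in cells. EPCAM and CDH1 were the only 2 of 8 called, both lower in vesicles. Each of the 10 vesicle profiles was closest to the cells of its own line, with r from 0.22 in SNU-C1 to 0.64 in SW480. Cell profiles of HT-29 and WiDr (r = 0.86) and of HCT 116 and LS123 (r = 0.81) were much closer to each other than the next pair (r = 0.36), so these lines are not fully independent.

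EREG and AREG lie close together on chromosome 4, and their levels varied together across the lines, as given below. Their promoter windows are printed to show what they share, and that of EGFR is printed as a contrast. The sequences are RefSeq's, build GRCh38.p14, from 250 bases before to 50 bases after the annotated start. Capitals mark the TATA box letters TATAAA, the cAMP response element TGACGTCA and the GC box GGGCGG or its reverse complement.
EREG, chr4:74364895-74365194, plus strand: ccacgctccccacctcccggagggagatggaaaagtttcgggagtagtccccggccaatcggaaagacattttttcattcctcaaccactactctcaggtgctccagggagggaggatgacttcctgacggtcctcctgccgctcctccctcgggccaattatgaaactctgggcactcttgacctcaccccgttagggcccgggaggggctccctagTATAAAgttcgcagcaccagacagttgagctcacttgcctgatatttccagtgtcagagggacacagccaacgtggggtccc
AREG, chr4:74444886-74445185, plus strand: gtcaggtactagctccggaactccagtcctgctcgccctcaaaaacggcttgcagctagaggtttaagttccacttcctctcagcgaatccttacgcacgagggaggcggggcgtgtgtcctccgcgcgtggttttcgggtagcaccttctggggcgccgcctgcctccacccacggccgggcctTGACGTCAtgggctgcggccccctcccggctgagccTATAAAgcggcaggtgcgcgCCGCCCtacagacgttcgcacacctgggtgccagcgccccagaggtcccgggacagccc
EGFR, chr7:55018767-55019066, plus strand: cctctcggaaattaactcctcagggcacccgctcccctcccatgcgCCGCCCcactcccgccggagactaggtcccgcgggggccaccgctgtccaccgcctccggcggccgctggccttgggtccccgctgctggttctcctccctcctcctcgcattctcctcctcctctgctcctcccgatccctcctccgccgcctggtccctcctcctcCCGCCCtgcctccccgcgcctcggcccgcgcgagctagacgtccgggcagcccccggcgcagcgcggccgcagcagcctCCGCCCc
Both ligand windows hold 1 TATAAA, which begins 32 bases before the start in EREG and 29 bases before it in AREG. Of the windows matched for EGFR, ERBB2, TGFA, HBEGF and BTC, only the second EGFR window, at chr7:55109589-55109888, held the same letters. No window was matched for ERBB3, so it was not searched. The motif stood in 11.53% of 35116 RefSeq promoter windows searched on both strands. AREG alone had TGACGTCA, which 1.85% of windows hold. The EGFR window printed above was 75.3% G and C with 3 GC boxes, a motif found in 44.95% of windows. None of the 3 motifs contains another, and a match describes the letters and is not evidence of binding.

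The 3 receptors were lower in vesicles than in cells in nearly every line. EGFR ranged from 6.5 CPM in SW480 to 59.5 CPM in SNU-C1 among the vesicle libraries, with a median of 23.7 CPM, against 27 to 186 CPM and a median of 117 CPM in cells. By TMM-scaled CPM all 10 lines had less EGFR in vesicles than in cells, although the ranges overlapped. LS1034 cells were lowest, at 27 CPM, and SW480 cells next, at 37.7 CPM. By library totals 9 of 10 lines were lower in vesicles, and LS1034 was higher, with 30.4 CPM in vesicles and 23.4 CPM in cells. Vesicles averaged 29 ± 15.4 CPM and cells 108 ± 49.5 CPM (SD, n = 10 each), a log2 fold of -1.92 (SE 0.25, edgeR quasi-likelihood test with the line as a block, Benjamini-Hochberg adjusted p = 1.78e-05). In bulk RNA, fewer vesicles carrying a transcript and less of it per vesicle cannot be told apart.

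ERBB2, the partner receptor, had a lowest, median and highest value of 12, 33.4 and 61.7 CPM in vesicles and of 52.6, 138 and 305 CPM in cells. Every line was lower in vesicles, most so in COLO-201, where vesicles held 19 CPM and cells 305 CPM. Its log2 fold was -2.20 (SE 0.32, edgeR adjusted p = 4.75e-05), with means of 35.2 ± 17.9 CPM in vesicles and 161 ± 82.6 CPM in cells (SD, n = 10 each).

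ERBB3 was the most abundant receptor per kilobase of exon and had the largest fold of the 3 in the fit over all lines. After background subtraction, its fold was the smallest of the 3, at -2.07. Its values ran from 7.12 CPM in SW480 through a median of 53 CPM to 97.8 CPM in WiDr vesicles, against 49.2, 346 and 498 CPM in cells. Vesicles were lower in 9 lines; in LS123 they held 70.8 CPM and the cells 49.2 CPM, the lowest cell value. The log2 fold was -2.54 (SE 0.41, edgeR adjusted p = 0.000111), with means of 49.1 ± 27.6 CPM in vesicles and 293 ± 175 CPM in cells (SD, n = 10 each).

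Among the ligands, TGFA, EREG, AREG and BTC were called lower in vesicles and HBEGF was not. TGFA, a ligand of EGFR, ranged from 10.1 CPM in LoVo to 35 CPM in HT-29 vesicles, with a median of 20.1 CPM, and from 39.1 to 148 CPM in cells, with a median of 104 CPM. It was the one member whose vesicle and cell values did not overlap, a pattern shown in that direction by 4.35% of the 15130 genes tested. Its log2 fold was -2.31 (SE 0.24, edgeR adjusted p = 2.86e-06), with means of 20.7 ± 7.84 CPM in vesicles and 103 ± 35.2 CPM in cells (SD, n = 10 each).

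EREG, a ligand of EGFR and ERBB4, had the widest range of the family in cells. Vesicles held 7.83 CPM in SNU-C1, a median of 90.8 CPM and 195 CPM in COLO-201 and HCT 116, and cells held 41.3 CPM in SW480, a median of 435 CPM and 1324 CPM in LS123. All 10 lines were lower in vesicles, from 4.47% of the cell level in SNU-C1 to 55% in HT-29. Its log2 fold of -2.65 (SE 0.37, edgeR adjusted p = 3.75e-05) was the largest of the 8 members in this fit, though not after background subtraction, where TGFA had -2.70 and EREG -2.06. Vesicles averaged 89.2 ± 68.3 CPM and cells 574 ± 479 CPM (SD, n = 10 each).

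AREG, the EGFR ligand encoded near EREG, showed a smaller fold. Vesicle values ran from 0.626 CPM in SNU-C1 through a median of 13 CPM to 38.8 CPM in COLO-201, against 5.92, 37.3 and 68.2 CPM in cells. All 10 lines were lower in vesicles, though HCT 116 vesicles kept 82.7% of the cell level. The log2 fold was -1.37 (SE 0.31, edgeR adjusted p = 0.00181). The SNU-C1 vesicle library held 2 AREG counts, a ratio to cells of 0.232 by library totals (exact 95% Poisson interval 0.0278 to 0.851, counting error only). AREG counts carry a further limit, since hg19 annotations hold a near-identical copy of the gene and the handling of reads that match both is not given in the sources used here.

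BTC, the second ligand here with 2 counts in a vesicle library, was called lower, close to the threshold. Its lowest, median and highest values were 0.626, 6.55 and 25.2 CPM in vesicles and 4.99, 13 and 70.4 CPM in cells. Vesicles were lower in 9 lines and higher in COLO-201, with 25.2 CPM against 14.3 CPM in its cells. By library totals 8 lines were lower. The log2 fold was -1.20 (SE 0.44, edgeR adjusted p = 0.0316), and leaving out LoVo, LS1034, LS513 or HCT 116 ended the call, with -0.80 (adjusted p = 0.249) without LoVo. SNU-C1 vesicles held 2 BTC counts, a ratio of 0.117 to cells by library totals (exact 95% Poisson interval 0.0142 to 0.427).

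HBEGF, a ligand that binds heparan sulphate on the cell surface, did not pass the threshold, with a log2 fold of -0.96 (SE 0.41, edgeR adjusted p = 0.0552). Values were 3.15, 15.3 and 25.8 CPM at the lowest, median and highest vesicle library and 5.04, 25.6 and 98.1 CPM in cells. Vesicles were lower in 8 lines, and higher in COLO-201 and in LS123, where vesicles held 16.9 CPM and cells 5.04 CPM. By library totals 7 lines were lower. Leaving out LS123, HBEGF was called lower (edgeR adjusted p = 0.00859).

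**Figure D1:**
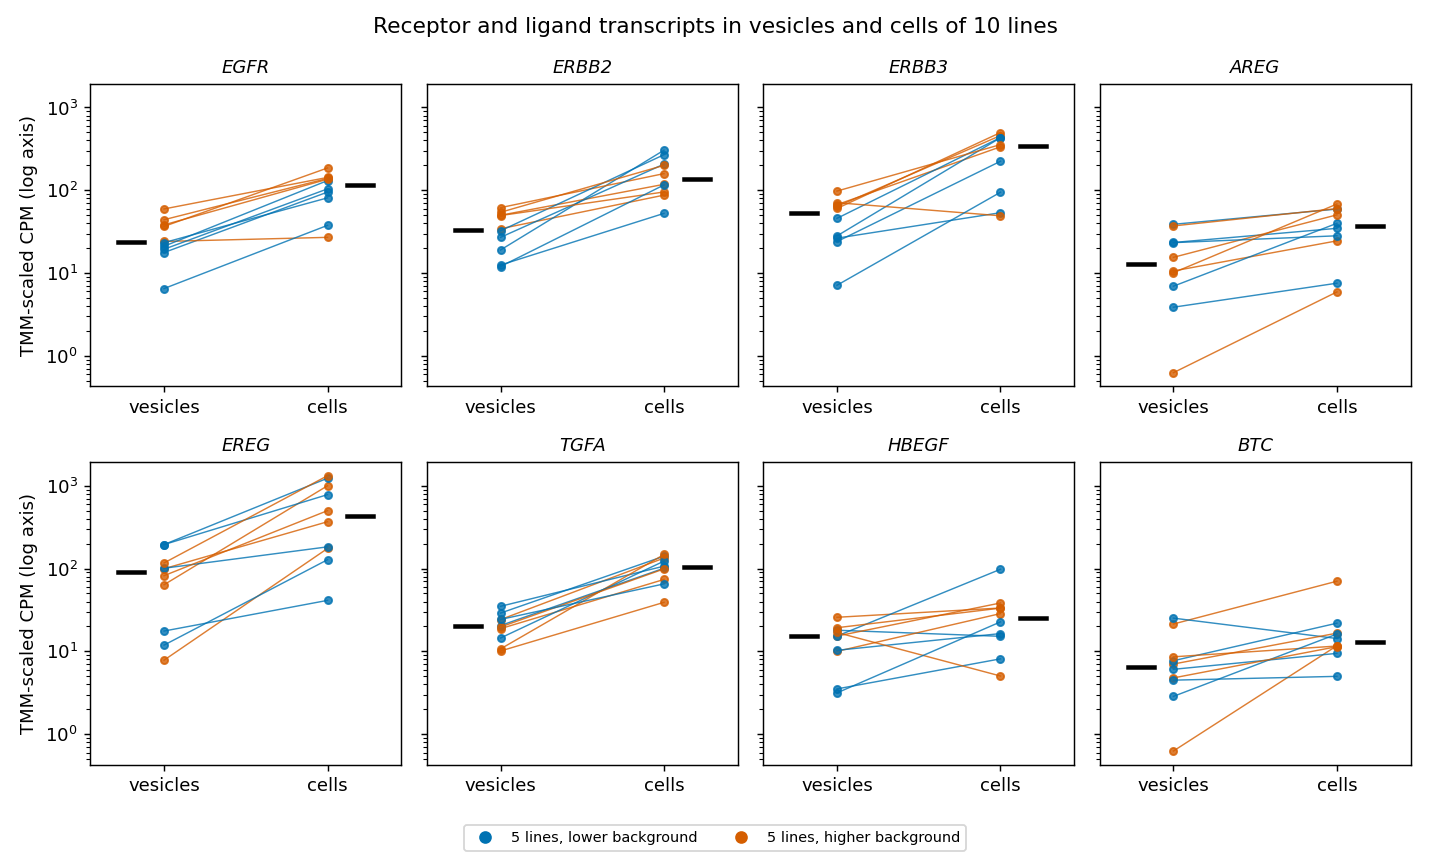
Level of each of the 8 members in CPM (log axis) in vesicle and cell libraries, 1 point per library, with lines joining the vesicle and cell library of a cell line and bars at the group medians. Colours give the background class. TGFA is the only panel in which all 10 vesicle points lie below all 10 cell points.

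In all, 7 of the 8 members were lower in vesicles and 0 were higher, with a median log2 fold of -2.06 over the 8. Over all 15130 genes tested, 28.1% were called lower and 28.6% higher, with a median of 0.01. All 8 members averaged at least 10 CPM in cells, and of the 10024 genes at that level 42.2% were lower and 5.29% higher, with a median of -0.53. The scaling between compartments matters to the smaller folds: scaling by library size alone moved the median of all genes by 0.47 and left AREG at -0.93 (adjusted p = 0.0153), while BTC, at -0.75 (adjusted p = 0.17), lost its call; 16.3% of all genes were then lower and 36.6% higher. Upper-quartile scaling moved that median by 0.75, with 11.6% of genes lower and 46.0% higher, and with EGFR, ERBB2, ERBB3, EREG and TGFA still called lower.

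**Figure D2:**
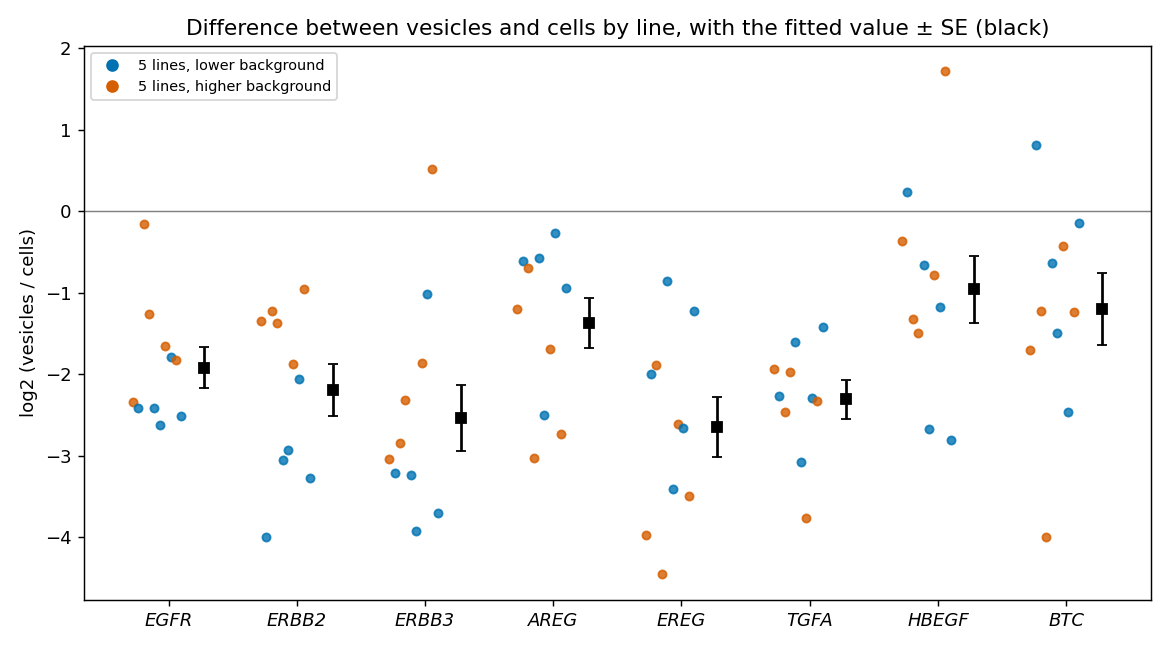
Log2 difference between vesicles and cells of each line (coloured points, by background class) for each member, with the fitted log2 fold ± SE over 10 lines (black squares). The fitted values of EREG, ERBB3, TGFA, ERBB2 and EGFR lie furthest below 0, and LS123 is the point above 0 for ERBB3 and the highest for HBEGF.

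Part of the receptor signal in vesicles lay near the background estimate. Summed over the 10 vesicle libraries, EGFR had 2.44 times the counts expected from background reads for its length and base composition, ERBB2 2.62 times and ERBB3 5.45 times. Among the ligands the ratio was 40.6 for EREG, 19.1 for AREG, 6.86 for BTC, 5.97 for TGFA and 5.12 for HBEGF. HBEGF thus stood below ERBB3. EGFR has the longest exon length of the 8, 12.52 kb, and AREG the shortest, 1.65 kb.

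In the 5 higher-background lines these ratios were smaller for every member. TGFA stood at 1.46 times the expected counts there, against 14.7 times in the lower-background lines, and EGFR stood at 1.58 against 4.11 times. For 9 of the 80 vesicle values, the exact 95% Poisson interval of the count did not lie above the expected count, so that no level above background was detectable at this depth. These were all 5 ligands in SNU-C1, TGFA and BTC in WiDr, TGFA in LoVo and BTC in LS123. TGFA in LoVo vesicles, for example, had 44 counts with 43.8 expected. For the other 71 values, all receptor values among them, the interval lay above the expected count. The error of the background estimate itself is not included. In SNU-C1 vesicles AREG and BTC had 2 counts each, with an interval of 0.242 to 7.22. That interval lay wholly below the expected 13.1 for AREG and 19.3 for BTC, so the estimate can be too high for single genes.

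**Figure D3:**
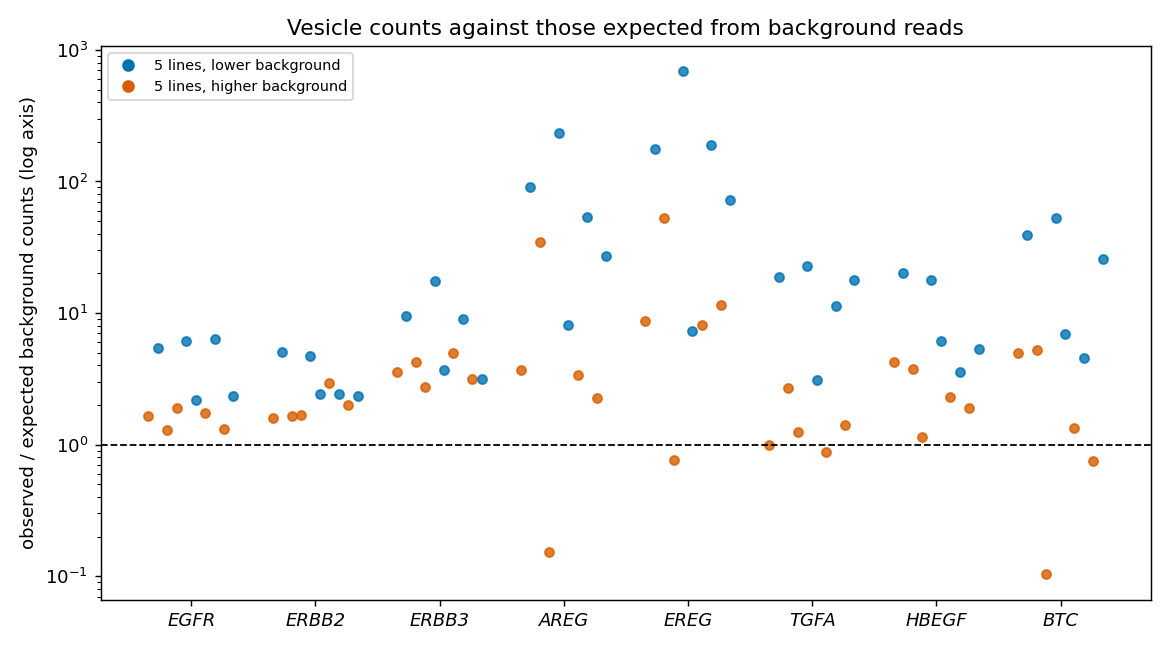
Observed counts over the counts expected from background reads for each member (log axis) in each of the 10 vesicle libraries, coloured by background class, with a line at 1. Points of the 5 higher-background lines lie nearest the line for TGFA and EGFR, and EREG reaches 690 times in the lower-background lines.

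With the expected background counts subtracted, 5 members remained lower in vesicles, beside 19.2% of 12765 genes tested. EGFR then had a log2 fold of -2.09 (edgeR adjusted p = 4.98e-05), ERBB2 -2.22 (0.000223), ERBB3 -2.07 (0.00237), EREG -2.06 (0.00376) and TGFA -2.70 (0.00304). AREG at -0.87 (adjusted p = 0.119), BTC at -1.23 (0.198) and HBEGF at -0.77 (0.274) did not pass. The same 5 members were lower in the 5 lower-background lines alone, beside 19.0% of genes, with AREG at -0.93 (adjusted p = 0.0914). In the 5 higher-background lines, 7 members were lower, all but HBEGF, beside 25.5% of genes lower and 34.0% higher.

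LS123, the line with vesicle values above its cells for ERBB3 and HBEGF, kept that direction after subtraction. Its log2 differences were then 1.21 for ERBB3 and 1.87 for HBEGF, against 0.52 and 1.72 before. LS123 vesicles held 252 ERBB3 counts and 60 HBEGF counts, and 38.6% of that library was estimated as background.

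The receptors' vesicle levels also followed the background class. EGFR held 24.1 to 59.5 CPM in higher-background vesicles and 6.5 to 23.3 CPM in lower-background vesicles. ERBB2 held 34.3 to 61.7 CPM against 12 to 32.4 CPM, and ERBB3 60.3 to 97.8 CPM against 7.12 to 45.8 CPM. For each receptor the 2 sets of vesicle libraries did not overlap, whereas their cell levels did. The share of all genes that separate in this way was not computed, and the 2 sets were themselves defined from vesicle background. By TMM-scaled CPM no ligand separated in this way. By library totals HBEGF did, at 18.3 to 34.5 CPM in higher-background vesicles and 2.67 to 15 CPM in lower-background vesicles.

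For ERBB2 the fold itself differed between the 2 sets of lines. It was -1.37 in the higher-background lines and -3.06 in the lower-background lines, each from a fit of those lines alone. An interaction fit over all 20 libraries gave a difference of 1.72 (SE 0.37, edgeR interaction adjusted p = 0.0401), where 7.50% of all genes were called and 1.37% in this direction. After background subtraction the difference was 1.85 (SE 0.39), with adjusted p = 0.179 over 12765 genes. The other 7 members had adjusted p between 0.165 and 0.621. The part of background reads in the ERBB2 difference beyond this subtraction was not tested.

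Compared per kilobase of exon, EREG was the most abundant member in both compartments, at 15.6 ± 12 CPM per kb in vesicles and 100 ± 83.8 CPM per kb in cells (SD, n = 10 each). In vesicles AREG (10.3 ± 8.06), ERBB3 (5.43 ± 3.06), HBEGF (4.56 ± 2.34), TGFA (4.17 ± 1.58), ERBB2 (3.41 ± 1.73), BTC (3.15 ± 2.84) and EGFR (2.32 ± 1.23) followed in CPM per kb. In cells the order after EREG was ERBB3 (32.4 ± 19.3), AREG (23 ± 13.2), TGFA (20.8 ± 7.09), ERBB2 (15.6 ± 8), HBEGF (9.91 ± 8.76), EGFR (8.62 ± 3.95) and BTC (6.7 ± 6.63). In both orders, neighbours differed by less than the larger of their SDs over lines.

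The make-up of the ligand pool per kilobase is given as a description, with no test. EREG made up 35.6 ± 16% of it in vesicles and 52.6 ± 22.4% in cells, and was the leading ligand in 6 vesicle and 8 cell libraries. AREG made up 23.9 ± 10.5% in vesicles and 15.4 ± 7.46% in cells, HBEGF 15.8 ± 11.1% and 9.68 ± 9.51%, and BTC 8.81 ± 6.39% and 4.6 ± 2.85% (SD, n = 10 each). These shares overlap widely between the compartments. With background reads subtracted, EREG made up 38.3 ± 22% in vesicles and 52.6 ± 22.4% in cells. Of 6 ratios between members computed within libraries, with no test, 1 ran the same way in every line. The log2 ratio of EREG to AREG counts was 2.37 ± 0.84 in vesicles and 3.61 ± 1.34 in cells, a difference of -1.24 ± 0.82 with 10 of 10 lines lower in vesicles (SD, n = 10 each). The SNU-C1 vesicle ratio rests on 2 AREG and 25 EREG counts, both under the background estimate. EREG over TGFA and EREG over ERBB3 were each lower in vesicles in 5 lines and higher in 5, EREG over EGFR lower in 7, ERBB3 over ERBB2 lower in 6 and EGFR over ERBB2 lower in 2. Among receptors, ERBB3 led per kilobase in 9 vesicle and 6 cell libraries, and made up 46.8 ± 6.96% of the receptor pool in vesicles and 52 ± 17.4% in cells.

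Single lines departed from this average. EGFR led the receptors per kilobase in HCT 116 cells (37.0% of the receptor pool) and LS123 cells (42.5%), where vesicles of the same lines held 31.1% and 19.5% EGFR and ERBB3 led. ERBB2 led in COLO-201 cells (47.8%), against 31.1% in COLO-201 vesicles, and in both compartments of SW480 (47.0% in vesicles, 45.6% in cells). TGFA led the ligands in both compartments of SW480 (37.8% in vesicles, 38.4% in cells), and HBEGF in both of LS513 (29.7% in vesicles, 29.1% in cells). LoVo vesicles held 31.2% EREG and 21.3% BTC, against 74.9% EREG and 10.7% BTC in LoVo cells. Over all lines, vesicles and cells had the same leading receptor in 7 of 10 and the same leading ligand in 8 of 10. The leading ligand differed in LS1034 (AREG in vesicles, EREG in cells) and in SNU-C1 (TGFA in vesicles, EREG in cells), where the vesicle ligand counts were not above background by counting error. With 1 library per line and compartment, these differences within a line have no replicate check.

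**Figure D4:**
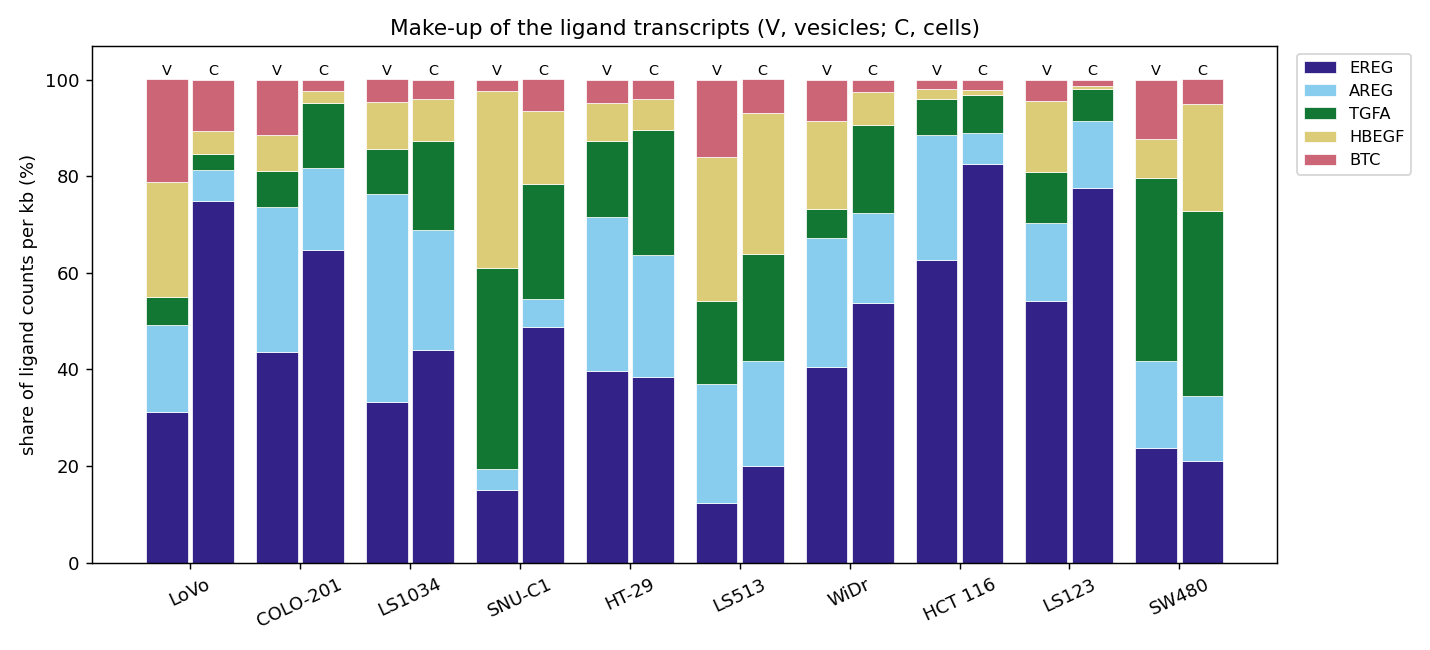
Share of each ligand in the summed per-kilobase level of the 5 ligands (%), as stacked bars for each line, with vesicles and cells side by side. EREG takes the largest share in 6 vesicle and 8 cell libraries, and its share is smaller in vesicles than in cells of the same line except in HT-29 and SW480.

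Across the 10 lines, cell levels of EREG and ERBB3 had the largest SD of log2 CPM among the members and those of TGFA the smallest. By the ratio of highest to lowest line, EREG (32) was followed by HBEGF (19.5), and ERBB3 had 10.1. EREG spanned 41.3 to 1324 CPM in cells, with HCT 116 (1235 CPM), LS123 (1324 CPM) and LoVo (1001 CPM) highest, and SW480 and LS513 lowest. ERBB3 was low in the same HCT 116 and LS123 cells, at 53.6 and 49.2 CPM, and in SW480 cells at 94.7 CPM, and was at least 224 CPM in the other 7 lines. HBEGF stood at 98.1 CPM in LS513 cells and 5.04 CPM in LS123 cells. The SD of log2 CPM over lines was 1.10 in vesicles and 1.31 in cells for ERBB3, 1.67 and 1.64 for EREG, 1.73 and 1.22 for AREG, and 0.58 and 0.60 for TGFA. Genes of at least 10 CPM in cells had median SDs of 0.88 in vesicles and 0.63 in cells.

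As a description over 10 lines that share libraries and include 2 close pairs, AREG and EREG correlated at r = 0.87 in vesicles and 0.60 in cells. AREG and TGFA, which lie on different chromosomes, had 0.25 in vesicles and 0.62 in cells. ERBB3 and HBEGF correlated at 0.70 in vesicles and 0.79 in cells. The 3 receptors ran together in vesicles more than in cells. EGFR and ERBB3 had r = 0.91 in vesicles against 0.14 in cells, EGFR and ERBB2 0.80 against 0.15, and ERBB2 and ERBB3 0.89 against 0.56. These are the genes whose TMM-scaled vesicle levels separated by background class, and the part of background in the correlations was not tested.

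Whether a line's vesicle level followed its cell level was examined for each member over the 10 lines. AREG had the highest correlation of log2 CPM, with Pearson r = 0.82 (permutation p = 0.00474, adjusted over all genes 0.0886) and Spearman rho = 0.56 (permutation p = 0.0962, adjusted 0.364). Without SNU-C1 and SW480, the lines farthest from the median cell level, its r was 0.24, so the relation rests on those lines, and the SNU-C1 vesicle value is 2 counts. EREG had r = 0.75 (permutation p = 0.0146, adjusted 0.141) and rho = 0.73 (permutation p = 0.0204, adjusted 0.202), and r = 0.61 without LS513 and SW480.

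EGFR had r = 0.64 (permutation p = 0.0534, adjusted 0.249) and rho = 0.67 (permutation p = 0.0388, adjusted 0.253), with r = 0.67 without LS1034 and SW480. BTC had r = 0.45, ERBB3 0.37, TGFA 0.32, HBEGF 0.29 and ERBB2 0.21, with adjusted permutation p between 0.443 and 0.758. ERBB3 had 0.84 without HCT 116 and LS123, and TGFA turned to -0.14 without LoVo and SW480. After adjustment 0 of 8 members passed by either measure, where 2.33% of genes passed by Pearson and 0 by Spearman. At an unadjusted permutation p under 0.05, 2 members passed by each measure, beside 20.7% of genes by Pearson. The median r of all genes was 0.38. After background subtraction r was 0.82 for AREG (permutation adjusted p = 0.0523), 0.77 for EGFR (0.0945) and 0.54 for EREG (0.285). The other members then had r between 0.29 and 0.37, and 0 of 8 members passed. Each background class has 5 lines, fewer than the minimum of 6 set here for reporting a correlation, so none is given within a class.

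**Figure D5:**
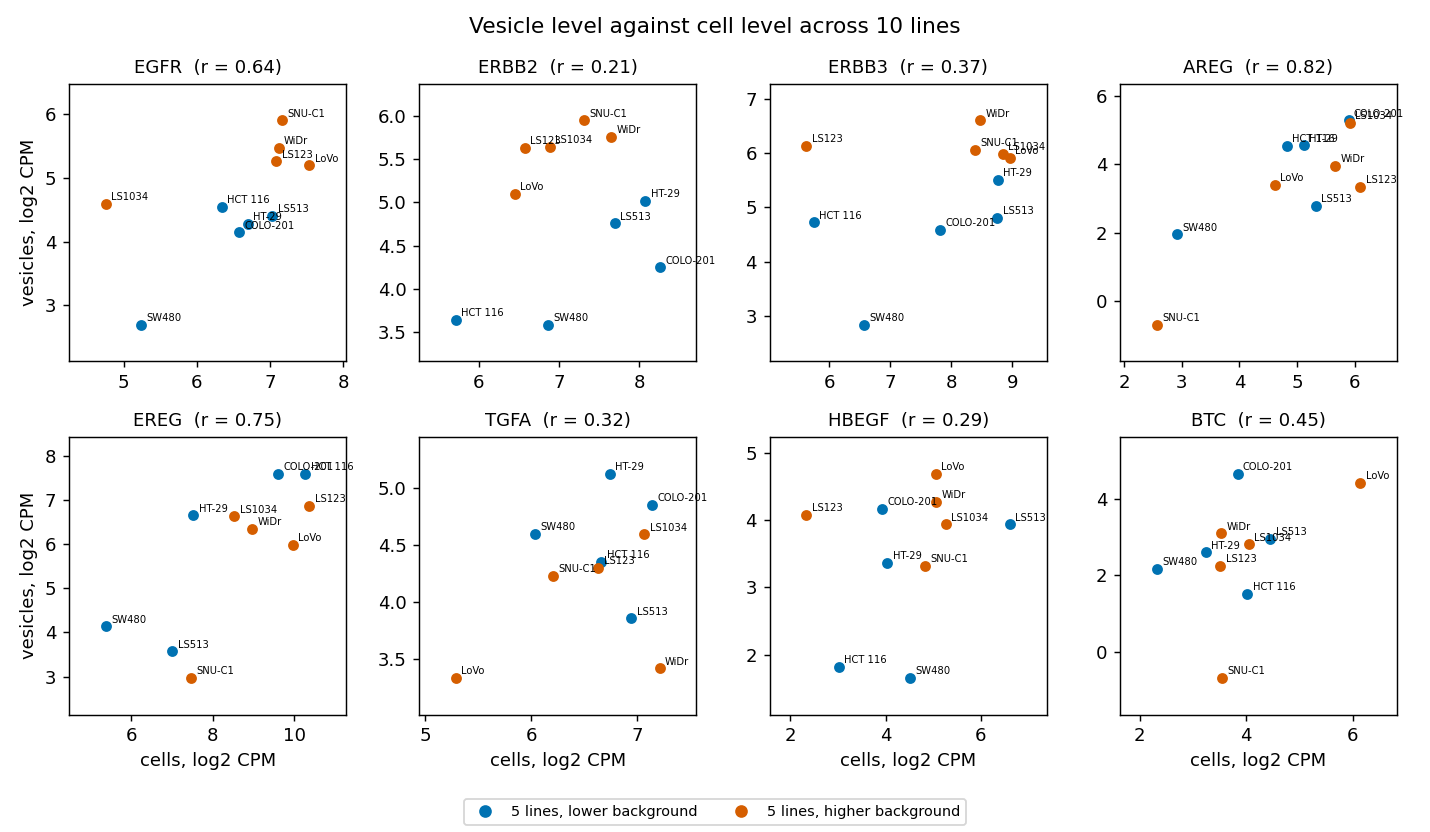
Level in vesicles against level in cells of the same line for each member, in log2 CPM, 1 point per line, coloured by background class, with Pearson r (computed with a prior count of 2) in each title. AREG (r = 0.82) and EREG (r = 0.75) show the closest relation in these values. After background subtraction, not drawn here, EGFR (r = 0.77) stood above EREG (r = 0.54). Orange points of the receptors lie above the blue ones.

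The genes around the family were counted from 4 lists. Of 10 tested genes of ligand processing, 8 were lower in vesicles and 0 higher, with a median log2 fold of -1.05. For comparison with this and the next 2 lists, 28.1% of all genes tested were lower and 28.6% higher, and 42.2% and 5.29% of genes of at least 10 CPM in cells. TMED10, a cargo receptor of the early secretory pathway, had 66.3 ± 21.3 CPM in vesicles and 722 ± 242 CPM in cells (SD, n = 10 each; log2 fold -3.45, SE 0.28, edgeR adjusted p = 9.38e-07). ADAM10, a sheddase of ligand precursors, had 36.7 ± 22.5 CPM in vesicles and 462 ± 149 CPM in cells (-3.78, SE 0.32, 1.12e-06).

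Of 15 tested adaptors and signal relays, 11 were lower and 1 higher, with a median of -0.95. Of the 14 that averaged at least 10 CPM in cells, 11 were lower and 0 higher, beside 42.2% lower and 5.29% higher among all genes at that level. CRKL, an adaptor protein, had a log2 fold of -2.10 (SE 0.25, edgeR adjusted p = 9e-06), and STAT3, a transcription factor downstream of the receptors, -1.29 (SE 0.21, 0.000102). The 1 higher gene, named after its value was seen, was GAB2, a docking protein, at 2.25 (SE 0.42, 0.000403). Of 17 receptor inhibitors and turnover genes, 10 were lower and 0 higher, with a median of -1.02, beside the same 42.2% and 5.29%. ERRFI1, a feedback inhibitor of EGFR, had -1.93 (SE 0.33, edgeR adjusted p = 0.000207) and PTPN1, a phosphatase, -1.02 (SE 0.20, 0.000505). PTPN1 lost its call after background subtraction (-0.66, edgeR adjusted p = 0.0561). The median of the 8 members, -2.06, lay below the medians of these 3 lists.

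The fourth list held the other family genes, ERBB4, EGF, EPGN and NRG1 to NRG4, none of which reached a mean of 10 CPM in cells. All 6 that were tested, which leaves out EPGN, were called higher in vesicles, beside 28.6% of all genes tested. Of those 4322 genes called higher, 530 averaged at least 10 CPM in cells. Among the 10024 genes at that level 5.29% were called higher, so the share among genes under 10 CPM is above 28.6%. That share, the closer comparison for these 6, was not computed separately. ERBB4, EGF, NRG1, NRG2 and NRG3, with cell means between 0.0979 and 0.669 CPM, are mostly near 0 in cells, so a count of such calls is not read as support. NRG1, a ligand of ERBB3 and ERBB4, had 559 vesicle counts in all, 0.915 times the background estimate, NRG3 1.02 times, ERBB4 1.15 times, EGF 1.22 times and NRG2 1.51 times. NRG2 kept its call after background subtraction (log2 fold 5.60, edgeR adjusted p = 0.0164). NRG4, a ligand of ERBB4, had counts in all 10 cell libraries, with 10.9 ± 12.9 CPM in vesicles and 2.77 ± 1.84 CPM in cells (SD, n = 10 each) and 2.79 times the background estimate. Its log2 fold was 1.56 (SE 0.54, edgeR adjusted p = 0.0222), and 1.19 (adjusted p = 0.284) after subtraction. By library totals, markers of leukocytes summed to 6.5 to 118 CPM in vesicles and 0.161 to 9.38 CPM in cells. Those of fibroblasts and endothelium summed to 18.6 to 362 CPM in vesicles and 0.444 to 11.7 CPM in cells. By the same measure, erythroid and platelet markers summed to 7.39 to 357 CPM in vesicles and 0.433 to 5.09 CPM in cells. None of these markers reached 10 CPM on average in cells. Their vesicle counts ran from 0.138 times the background estimate for CD68 to 12.1 times for HBB. ITGAM, COL1A1, PDGFRB, VWF, HBB and ITGA2B were still called higher after background subtraction (edgeR adjusted p 7.53e-05 to 0.0156). CD14 was not (0.914), and the rest were not tested there.

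Genes whose cell levels ran most like each member were named by the highest Pearson r of log2 CPM over the 10 cell libraries, among 10023 other genes of at least 10 CPM. The highest were TPM1 (0.984), S100P (0.981) and TSPAN8 (0.978) for ERBB3, SLC12A7 (0.960), CTSD (0.956) and SDC1 (0.952) for ERBB2, and PITPNM3 (0.944), KCNK1 (0.931) and PRKCH (0.869) for EGFR. For the ligands, FAM222B (0.937), FAM111A (0.918) and B3GNTL1 (0.908) ran most like TGFA, TBX3 (0.933), SPRY2 (0.930) and NMRK1 (0.929) like HBEGF, and CLIP1 (0.922), ARL1 (0.916) and RNF111 (0.911) like BTC. ITM2C (0.902), SP140L (0.878) and NFE2L1 (0.870) ran most like AREG, and NIPA1 (0.888), PDS5A (0.886) and WDR76 (0.883) like EREG. ERBB3 had 58 genes with r over 0.9 and EREG had 0. Spearman rho was lower for several of these genes, at 0.39 for PRKCH and 0.68 for KCNK1 with EGFR, 0.56 for SP140L and AREG, and 0.62 for CLIP1 and 0.65 for RNF111 with BTC.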

How the data were processed

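RNA of vesicles and cells of 10 colorectal cancer lines was measured in 20 libraries. The authors deposited raw counts per gene symbol. Per the submitters' processing notes, the tools were STAR and featureCounts and the genome hg19; versions, annotation and strand setting are not given in the sources used here, so overlapping or antisense genes cannot be told apart. All 20 columns matched a library title, and samples were grouped by compartment.

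From the deposited counts, edgeR 4.0.16 (R 4.3.3) fitted a robust quasi-likelihood model with TMM scaling and the cell line as a block over the 15130 genes that passed filterByExpr, with Benjamini-Hochberg adjustment and a threshold of 0.05. The block follows the labels, since each line gave both libraries. Of 10 vesicle profiles, 10 were closest to their own line's cells (r = 0.22 to 0.64). CPM values are TMM-scaled, except where given by library totals. Background reads were estimated per library by Poisson regression of the counts of silent genes (no cell library above 10 counts) on log exon length and GC content (GENCODE 29, matched by symbol for 99.9% of genes); expected counts were subtracted in an alternative. Agreement used log2 CPM with a prior count of 2 and 100000 permutations of lines. Scripts were tested on simulated data.

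A count of 0 allows up to 3 counts, 0.123 to 1.72 CPM by library total in vesicles and 0.0802 to 0.121 CPM in cells; such limits and intervals cover counting error only. Alternatives were other scalings, no filter, DESeq2 1.42.0, no block, background subtraction, subsets of lines and each line left out; those on the higher-background lines, and on subtraction within either set, were chosen after seeing the data. Members, lists and tests were chosen with earlier results of these data known. Named genes were all 8 members, the 2 genes of smallest adjusted p in each pathway list, and the 3 genes most like each member in cells. Protein sequences were not used here.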

Additional observations from a re-analysis of the deposited data

Results flagged for a closer look

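The ERBB2 fold between vesicles and cells differed between the 5 higher-background and the 5 lower-background lines by 1.72 on the log2 scale (SE 0.37, edgeR interaction adjusted p = 0.0401). CRKL, the adaptor named from the list of signal relays, differed between the same sets of lines by -1.16 (SE 0.31, edgeR interaction adjusted p = 0.0443). The sets were defined from the background estimate and are not groups of the study. No library stood apart from the other 9 of its compartment in any of the 16 checks of the 8 members.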

How the results depend on the processing

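EGFR, ERBB2, EREG and TGFA kept their direction and their call in all 22 alternatives, and ERBB3 in 21, with -1.37 (edgeR adjusted p = 0.107) in the higher-background lines after subtraction. AREG lost its call in 6 alternatives, with log2 folds between -1.82 and -0.64 over all 22 (adjusted p 0.00131 to 0.222), and BTC in 14, between -2.39 and -0.46 (0.015 to 0.53); HBEGF gained one in 5, between -1.41 and -0.21 (0.00859 to 0.754). No member's fold changed sign. The number of members lower was 4 in the higher-background lines after subtraction, and 6 to 8 with each line left out. Without the block for the line, AREG had -1.15 (adjusted p = 0.0765), BTC -1.08 (0.106) and HBEGF -1.12 (0.0493), and no other member's call changed. Genes lower in the pathway lists numbered 29, against 18 with library-size scaling, 12 with upper-quartile scaling, 18 after background subtraction, 18 in the lower-background and 7 in the higher-background lines after subtraction, and 17 (without LoVo) to 30 with each line left out. Genes higher numbered 7, against 2 after subtraction, 3 in the lower-background lines, and 1 and 2 in the lower-background and higher-background lines after subtraction. Of 168 alternative values of the named pathway genes 161 kept their call, 7 lost it, 5 of them PTPN1's, and 0 reversed. Over all genes, 4254 were lower and 4322 higher, against 2802 and 5325 with DESeq2 size factors, 2465 and 5532 with library-size scaling, 1759 and 6957 with upper-quartile scaling, 2457 and 1878 after subtraction, 2816 and 2881 in the lower-background lines, 2279 and 1741 there after subtraction, 1272 and 1014 in the higher-background lines after subtraction, and 2383 and 4749 without LoVo. In the agreement between compartments 1 member, EREG (r = 0.85, permutation adjusted p = 0.0446), passed with library-size scaling, and TGFA reversed to -0.14 without the 2 farthest lines. For fewer lines or subtracted counts, fewer genes were tested or fewer samples fitted; for the other changes the cause was not tested. The higher-background vesicle libraries held 1748238 to 4507779 counts. Whether depth or background share set the AREG, BTC and TGFA values near background there was not tested.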
